A study of Mus musculus with 12 samples.

Results

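The p53 target genes described here are 10 genes that p53 activates after DNA damage and other stress: Cdkn1a, Ccng1, Plk2, Mdm2, Phlda3, Trp53inp1, Aen, Zmat3, Sesn1 and Gdf15. They were taken by name from the 55401 gene rows of the deposited expression table, and each name matched 1 row. The rule uses no measured value, but the genes were picked with earlier results of these data known. All 10 genes were among the 13792 genes expressed highly enough to be tested.

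RNA was sequenced from 12 dishes of mouse airway organoids, balls of epithelium grown in culture from proximal airway cells of C57BL/6J lungs. In 6 dishes a femtosecond laser had killed 10 adjacent cells in every organoid, and 6 dishes stayed untreated as the control. Each dish pooled 45 organoids, which were harvested 4.5 h after ablation, and the cells of both groups carried a lentivirus that expresses Histone2A-mCherry from a p63 promoter. Dishes of the same number formed a pair with a shared passage label (P2+14, P2+15 or P2+16) and a shared culture day (14 to 20), and the pairs fell into 2 library sets, with pairs 1, 3 and 5 in set 1 and pairs 4, 6 and 7 in set 2. The labels do not tie dishes to animals, so that p-values measure only the spread between these dishes. The titles of controls 4, 6 and 7 carry the word ablation while their treatment label says control, and the treatment label was followed.

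p53 is a transcription factor that is kept scarce by Mdm2, a ubiquitin ligase whose own gene is a p53 target. When DNA is broken or a cell is otherwise stressed, p53 accumulates and binds a response element made of a pair of half-sites in or near its target genes. The products of these genes halt the cell cycle, restrain growth signaling, favor cell death or feed back on p53 itself. Several of them are also transcribed without p53, for example by p63 and p73, which recognize a similar element, or by ATF4, a factor of the amino acid and protein folding stress responses.

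None of the 10 target genes passed the threshold after ablation, and their differences were small. The log2 difference between ablation and control lay between -0.21 (Sesn1) and 0.04 (Mdm2), with 9 of 10 genes below 0 where 51.5% of all genes tested were below 0. Their median was -0.06 (-0.12 without pair 3 and -0.10 without pair 7), and that of all genes tested was -0.0037. The median absolute difference was 0.06 for the target genes and 0.07 for all genes tested. At an adjusted p under 0.05, limma called 0 of 10 genes in the model with library set, in which 0% of all genes passed, and 0 of 10 in the model with the pair, in which 1.09% passed (150 genes). At an unadjusted p under 0.05 stood Phlda3 and Zmat3 in the first model (7.85% of all genes, and 3.7% with a lower value) and Phlda3, Zmat3 and Sesn1 in the second (17.6% and 8.86%). edgeR on the 9 libraries with recovered reads called 0 of 10 as well, with 0% of all genes called and 5.79% at an unadjusted p under 0.05, among them Zmat3. In no target gene did ablation and control dishes fail to overlap, which they did for 0.457% of all genes. The paper's own DESeq2 test of these libraries, with condition and an undescribed batch, did find differentially expressed genes. Among the processes it reports as enriched are cell cycle arrest and regulation of cell death. The model with library set is not a repeat of that test. The RNA came from whole organoids, and only 10 cells in each were ablated. The paper expected mainly cells near the damage to take part in early repair, and so small changes in the measured profiles. Whether the target genes changed in those cells was not tested.

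The response element itself is shown for the members whose promoter holds the nearest matches, since it is the feature by which p53 recognizes its targets. Promoter sequences were taken from RefSeq (build GRCm38.p6), which gave windows from 250 bases before to 50 bases after a start for 8 of 10 genes, 12 windows in all, and not for Zmat3 and Trp53inp1. Each window was searched on both strands for the 20-base p53 consensus element without spacer. Capitals mark bases that match the consensus and lower case marks mismatches.
Cdkn1a (chr17:29090928-29090947, + strand): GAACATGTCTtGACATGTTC
Ccng1 (chr11:40755462-40755481, - strand): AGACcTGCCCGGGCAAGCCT
Aen (chr7:78895937-78895956, + strand): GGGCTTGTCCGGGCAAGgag
Sesn1 (chr10:41887266-41887285, + strand): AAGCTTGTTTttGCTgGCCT
The elements of Cdkn1a and Ccng1 departed from the consensus at 1 position, and 0.0883% of all 32841 promoter windows held a match this near or nearer, as did 0.0628% of the 12731 windows of tested genes. Those of Aen and Sesn1 departed at 3 positions, and 6.29% of all windows held a match at least as near. The best match in the windows of Mdm2, Phlda3, Gdf15 and Plk2 had 5 mismatches, and 76.6% of all windows did as well or better. A complete half-site of 10 bases was found for Cdkn1a, Ccng1, Aen, Sesn1 and Mdm2 and in 8.36% of all windows. p53 also binds outside such windows, in Mdm2 within the first intron, and a match in letters is a description and not a measured site. The 2 promoters with the nearest matches read as follows from 5′ to 3′ on the strand of the gene, with the element in capitals.
Cdkn1a promoter (chr17:29090729-29091028, + strand): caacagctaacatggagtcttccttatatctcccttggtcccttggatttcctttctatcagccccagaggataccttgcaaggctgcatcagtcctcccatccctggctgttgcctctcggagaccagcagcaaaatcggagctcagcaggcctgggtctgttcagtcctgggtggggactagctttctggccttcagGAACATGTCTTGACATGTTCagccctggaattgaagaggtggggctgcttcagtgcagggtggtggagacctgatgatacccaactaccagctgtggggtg
Ccng1 promoter (chr11:40755237-40755536, - strand): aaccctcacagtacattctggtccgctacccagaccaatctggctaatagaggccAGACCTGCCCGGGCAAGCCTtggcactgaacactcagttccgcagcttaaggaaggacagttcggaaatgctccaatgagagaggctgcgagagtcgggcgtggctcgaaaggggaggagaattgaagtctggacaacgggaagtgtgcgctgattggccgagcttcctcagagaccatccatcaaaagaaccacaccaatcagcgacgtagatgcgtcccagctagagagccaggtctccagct
Relative to the start of the window shown, the Cdkn1a element began at base -51 and that of Ccng1 at base -195. Another window of Cdkn1a, at chr17:29093519-29093818 with a start of its own, had 5 mismatches at best. Another window of Sesn1 had 6. Among genes tested, 8 had a window with at most 1 mismatch, namely Cdkn1a, Ccng1, Calhm2, Gm15987, Gtse1, Mthfd1, Rps27l and Sptbn4. Their log2 differences after ablation ranged from -0.12 (Calhm2) to 0.14 (Gm15987), and none was called in either limma model.

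Recovered reads numbered 27954695 to 29489553 in 4 ablation libraries and 23631212 to 29775699 in 5 control libraries, and the depth of the other 3 libraries was not recovered. Mitochondrial transcripts made up 1.29 to 1.79% of normalized counts after ablation and 1.41 to 1.79% in the control. All 5 basal cell markers (Krt5, Krt14, Trp63, Ngfr, Itga6) were expressed, with sums of 476550 to 617310 and 472920 to 598850 normalized counts, and so were both epithelial markers. Secretory markers summed to 26215 to 78627 and 31319 to 66691, nearly all of it Cyp2f2, while Scgb1a1 stayed at or below 9.65. The 4 multiciliated markers summed to 114 to 170 and 133 to 175, mostly Rsph1 (99.0 to 152), while Foxj1 did not exceed 18.1. Of other tissues, 4 alveolar type II markers summed to at most 15.4, 4 fibroblast markers to at most 48.3 and 3 endothelial markers to at most 14.3, with Sftpc and Kdr at 0 in every dish. Leukocyte markers summed to 115 to 147 and 102 to 173, mostly Cd68. Their part in the values below was not tested. In bulk samples, fewer cells of a type and less RNA per cell cannot be told apart.

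Between genes, levels were compared as normalized counts per kilobase of exon. Phlda3 (chromosome 1, 135766119 to 135769136) had the highest mean level over the 12 dishes, 3816 per kb, above 97.9% of the genes tested. Ccng1 (1485 per kb) and Cdkn1a (1443 per kb) followed, and their dishes overlapped. Plk2 (690.3), Mdm2 (597), Trp53inp1 (577) and Sesn1 (425) formed the middle of the order with overlapping dishes. Below them stood Aen with 174 per kb, near the middle of all genes (percentile 50.7), and then Gdf15 with 96.0 and Zmat3 with 70.9, which overlapped with each other. Thus all 10 target genes were transcribed in organoids that had not been ablated. Reads of Cdkn1a and Sesn1 could in part belong to 1 other transcript each that overlaps them, AC167363.2 and 9930024M15Rik, but these had at most 4.95 and 5.99 normalized counts.

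**Figure D1:**
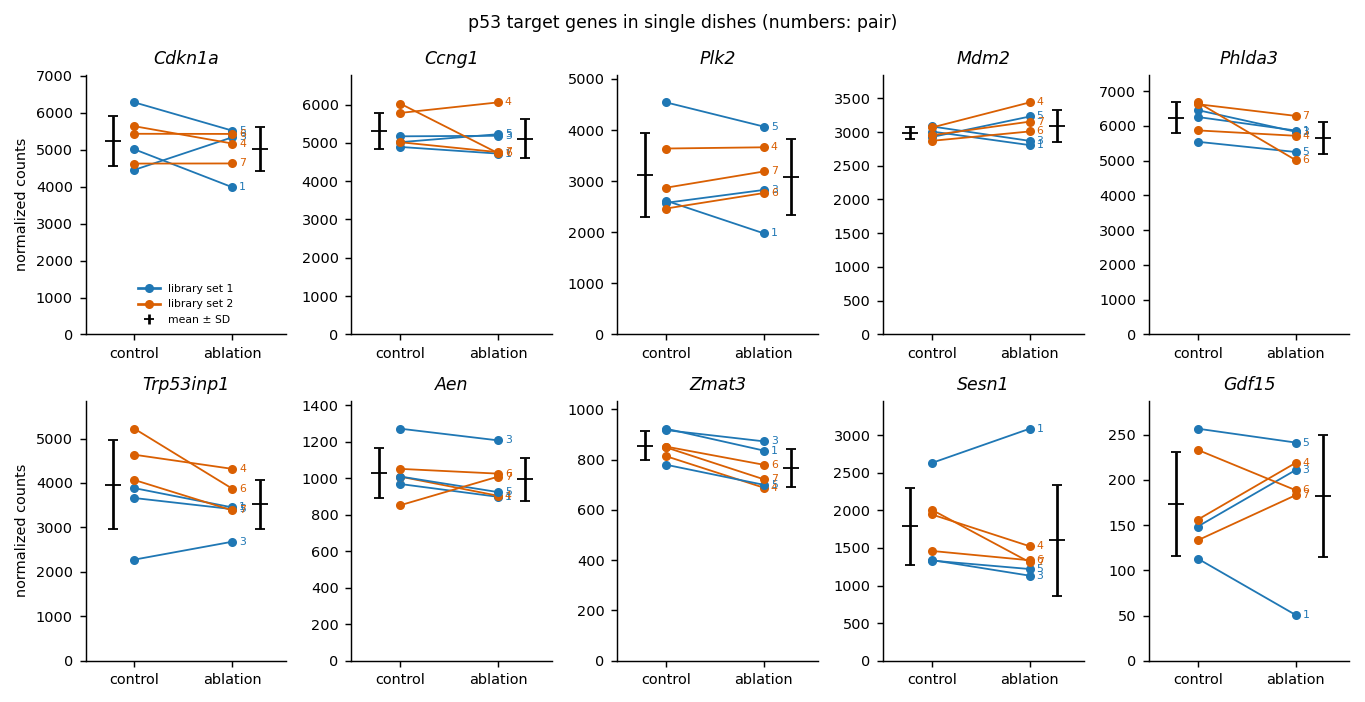
Normalized counts (y axis, from 0) of the 10 p53 target genes in single dishes of control and ablation (x axis), with a line for each of the 6 pairs, blue for library set 1 and orange for set 2, and bars for the mean ± SD of 6 dishes. In each gene the control and ablation dishes overlap, Phlda3 and Zmat3 slope down in every pair, and Sesn1 and Gdf15 have an ablation dish of pair 1 far from the other 5.

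Genes linked to the cell cycle are described first. Cdkn1a (chromosome 17, 29090976 to 29100727) encodes p21, the inhibitor of cyclin-dependent kinases through which p53 arrests cells in G1. It ranged from 3987 to 5519 normalized counts after ablation (median 5254) and from 4457 to 6284 in the control (median 5223). The medians nearly coincided, and the lowest dish of all was ablation 1 and the highest control 5. Means were 5012 ± 593 (SD, n = 6) and 5242 ± 682. The log2 difference was -0.06 with an adjusted p of 0.894 and a 95% interval from -0.27 to 0.15, which as a fold lies between 0.827 and 1.11. With the pair in the model, the interval was narrower, from 0.872-fold to 1.05-fold. Within pairs Cdkn1a was lower in 4 and higher in 2, by -0.33 in pair 1 and 0.26 in pair 3 at the extremes, while in pairs 6 and 7 it differed by -0.0011 and 0.0011. The fitted difference was -0.010 without pair 1 and -0.13 without pair 3.

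Ccng1 (chromosome 11, 40748552 to 40755311), the gene of cyclin G1, which recruits a phosphatase to Mdm2, ranged from 4719 to 6056 normalized counts after ablation (median 4971) and from 4893 to 6023 in the control (median 5094). Both groups spanned nearly the same range. The means were 5112 ± 517 and 5317 ± 468 (SD, n = 6), the log2 difference was -0.06 (adjusted p = 0.861) and its interval reached from -0.21 to 0.09. Pairs were divided evenly, 3 lower and 3 higher, and the one large step was -0.35 in pair 6. Without pair 6 the log2 difference was 0.00022.

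Plk2 (chromosome 13, 110395046 to 110400844) encodes a polo-like kinase that takes part in centriole duplication and is also induced by growth signals. After ablation it ranged from 1978 to 4067 normalized counts (median 3009), and in the control from 2464 to 4541 (median 2745). Pair 5 was highest in both groups and pair 1 lowest after ablation, so that dishes differed up to 2.3-fold. Means of 3082 ± 735 and 3118 ± 816 (SD, n = 6) gave a log2 difference of -0.02 (adjusted p = 0.992, 95% interval from -0.41 to 0.38). In the paired model the interval was -0.17 to 0.13. Of all its variation over the 12 dishes, 89.9% lay between pairs and 0.0654% between ablation and control. Its sign depended on single pairs, with 0.061 without pair 1 and 0.012 without pair 5, and it was 0.019 in edgeR and 0.11 in set 2 alone.

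The feedback regulator Mdm2 (chromosome 10, 117688875 to 117710758) was the one target gene with a positive difference. It ranged from 2806 to 3439 normalized counts after ablation (median 3081) and from 2869 to 3082 in the control (median 2979.9). Control dishes lay close together, and 3 ablation dishes, those of pairs 4, 5 and 7, were above all of them. The means were 3084 ± 237 and 2984 ± 83.2 (SD, n = 6). A log2 difference of 0.04 (adjusted p = 0.856) had an interval from -0.07 to 0.16, that is, up to 1.11-fold. Mdm2 was higher in 4 pairs by 0.07 to 0.17 and lower in pairs 1 and 3 by -0.10 each. Its difference was 0.020 without pair 4, 0.025 without pair 5, 0.073 without pair 1 and 0.074 without pair 3, and in library set 1 alone it was -0.020. No target gene varied less between dishes, with a highest dish 1.23 times the lowest.

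Growth and death regulators come next. Phlda3 (chromosome 1) encodes a protein that competes with Akt for membrane lipids and so dampens Akt signaling. It ranged from 5017 to 6288 normalized counts after ablation (median 5773) and from 5543 to 6676 in the control (median 6355). Within pairs the ablation dish was always the lower one, although the groups overlapped. With means of 5661 ± 459 and 6237 ± 449 (SD, n = 6), the log2 difference was -0.14 (unadjusted p = 0.0463, adjusted p = 0.629, 95% interval from -0.28 to -0.0027). The paired model gave an adjusted p of 0.159 and an interval from 0.845-fold to 0.974-fold. Differences within pairs were between -0.04 and -0.15 in 5 pairs and -0.41 in pair 6. Without pair 6 the log2 difference was -0.09.

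Trp53inp1 (chromosome 4, 11156431 to 11174379) encodes a stress protein that promotes p53 phosphorylation and autophagy. After ablation it ranged from 2679 to 4318 normalized counts (median 3431), and in the control from 2276 to 5222 (median 3976). The lowest control was that of pair 3 and the highest that of pair 6. Means were 3519 ± 548 and 3958 ± 999 (SD, n = 6), with a log2 difference of -0.14 (adjusted p = 0.821, interval from -0.42 to 0.14). It was lower in 5 of 6 pairs, and the paired model gave an adjusted p of 0.306 with an interval from -0.29 to 0.0077. Without pair 6 the log2 difference was -0.081, and without pair 3 -0.21. Untreated dishes varied as well. Controls of set 2 had 4642 ± 578 normalized counts and those of set 1 3274 ± 872 (SD, n = 3). In limma the log2 difference was 0.53 (unadjusted p = 0.0278, adjusted p = 0.339). By passage, control means were 3080 at P2+14, 4149 at P2+15 and 4645 at P2+16 (n = 2 each). P2+15 was the only passage in both sets, with controls of 3662 in set 1 (pair 5) and 4636 in set 2 (pair 4). From single dishes, passage and library set cannot be told apart.

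Aen (chromosome 7, 78895854 to 78911209) encodes an apoptosis-enhancing nuclease. It ranged from 898 to 1207 normalized counts after ablation (median 966) and from 852 to 1271 in the control (median 1009). Pair 3 was highest in both groups and the lowest dish was control 7. Means of 994 ± 117 and 1027 ± 138 (SD, n = 6) gave a log2 difference of -0.04 (adjusted p = 0.936, interval from -0.24 to 0.16). Aen was lower in 5 of 6 pairs, by -0.04 to -0.16, and higher by 0.24 in pair 7. Without pair 7 its log2 difference was -0.10, without pair 5 -0.027 and without pair 4 -0.021.

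Zmat3 (chromosome 3, 32334792 to 32366014) encodes a zinc finger protein that binds RNA and influences splicing. It ranged from 688 to 872 normalized counts after ablation (median 750.1) and from 779 to 923 in the control (median 849.8). As for Phlda3, each ablation dish was below its own control while the groups overlapped. The means were 766 ± 76.0 and 855 ± 56.5 (SD, n = 6). Its log2 difference of -0.16 had an unadjusted p of 0.0318 and an adjusted p of 0.619 (interval from -0.31 to -0.02). With the pair in the model the unadjusted p was 0.0035, the adjusted p 0.101 and the interval 0.835-fold to 0.957-fold. The pair differences, from -0.07 in pair 3 to -0.24 in pair 4, varied least of the 10 genes, and only 4.7% of its variation was left after pair and condition. Phlda3 and Zmat3 were the 2 of 10 target genes lower in 6 of 6 pairs, which 4.63% of all genes tested were, and none was higher in 6 of 6, as were 5.17% of all genes.

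Sesn1 (chromosome 10, 41809935 to 41908424) encodes a sestrin, which restrains the growth kinase complex mTORC1. It ranged from 1131 to 3085 normalized counts after ablation (median 1323) and from 1332 to 2629.9 in the control (median 1702). Both dishes of pair 1 were the highest of their group, and the other 5 ablation dishes did not exceed 1522. Means were 1601 ± 739 and 1785 ± 510 (SD, n = 6). The log2 difference of -0.21 was the largest of the 10 genes but had a wide interval from -0.72 to 0.31 (adjusted p = 0.858). The paired model gave -0.40 to -0.0097 (unadjusted p = 0.0415, adjusted p = 0.260). Sesn1 was lower in 5 pairs, by up to -0.62 in pair 7, and higher by 0.23 in pair 1. Without pair 1 the log2 difference was -0.29. Its adjusted p was then 0.337, and in the paired model 0.0589, the lowest of any target gene under any alternative. Without pair 7 the log2 difference was -0.12 (paired adjusted p = 0.413), and edgeR on the 9 libraries gave -0.012. Over all alternatives its adjusted p reached up to 0.9998.

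Gdf15 (chromosome 8, 70629393 to 70632456) encodes a secreted stress cytokine of the TGF-beta superfamily. It ranged from 50.7 to 241 normalized counts after ablation (median 199.7) and from 113 to 257 in the control (median 152). Pair 1 held the lowest dish of both groups, whereas for Sesn1 it held the highest. The mean was higher after ablation, 182 ± 67.8 against 173 ± 57.8 (SD, n = 6), whereas the log2 difference, which averages log values, was -0.01 (adjusted p = 0.996), with the widest interval of the 10 genes, from 0.594-fold to 1.65-fold. Within pairs the difference was -1.14 in pair 1, -0.30 in pair 6 and -0.09 in pair 5, against 0.46 to 0.50 in the other 3. Its sign was not stable, with a log2 difference of 0.21 without pair 1, 0.043 without pair 6 and 0.21 in set 2 alone, and of -0.12 without pair 3. The highest dish held 5.06 times the lowest, the widest span among the target genes.

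**Figure D2:**
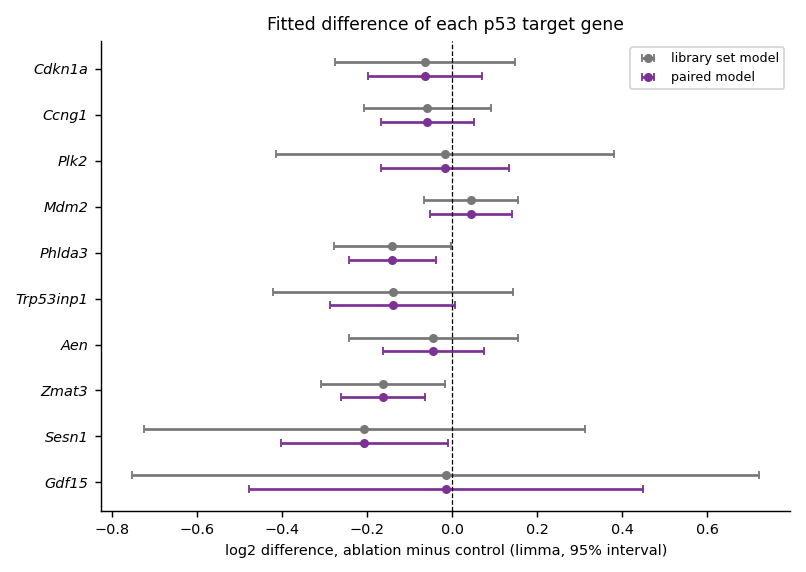
Fitted log2 difference of ablation minus control (x axis) for each of the 10 p53 target genes (y axis), with points for the limma estimate and bars for its 95% interval, gray for the model with library set and purple for the model with the pair. Estimates lie between -0.21 and 0.04, and the intervals of Gdf15, Sesn1 and Plk2 are the widest with library set.

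Read by pair, the target genes were lower in 41 and higher in 19 of 60 single comparisons. In pair 1, 9 of 10 genes were lower (median -0.13), and in pairs 5 and 6, 8 of 10 (medians -0.11 and -0.13). Pair 4 had 6 lower genes (median -0.07), and pairs 3 and 7 had 5 each (medians -0.03 and -0.04). All 6 medians were thus below 0, with between 47.3 and 51.9% of all genes tested lower in the same pairs. Only 3 of the 60 values, 5.0%, exceeded 0.5 in size, against 9.43% over all genes, which were not matched for expression level. The 2 largest belonged to Gdf15 in pair 1 and Sesn1 in pair 7.

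**Figure D3:**
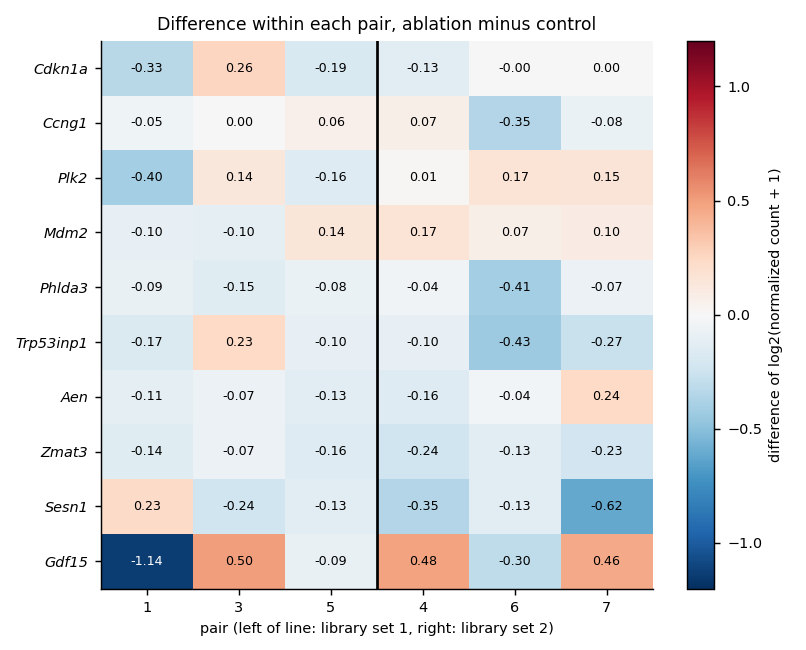
Difference of log2(normalized count + 1), ablation minus control, for the 10 p53 target genes (rows) in each of the 6 pairs (columns), blue where lower and red where higher after ablation. Phlda3 and Zmat3 are below 0 in all 6 columns, and the darkest cell is Gdf15 in pair 1 with -1.14.

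In 8 of 10 target genes, most of the sum of squares lay between pairs. Dishes that vary independently also give a sum of squares between pairs, and that part was not subtracted. How much of the variation both dishes of a pair shared was therefore not measured. The share of the sum of squares that lay between pairs ranged from 42.4% (Phlda3) to 89.9% (Plk2), with a median of 72.2% beside 67.6% for all genes tested. Ablation against control took a median of 5.21% beside 5.47% for all genes. Zmat3 (35.3%) and Phlda3 (32.0%) stood above the other 8, none of which exceeded 7.95%.

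**Figure D4:**
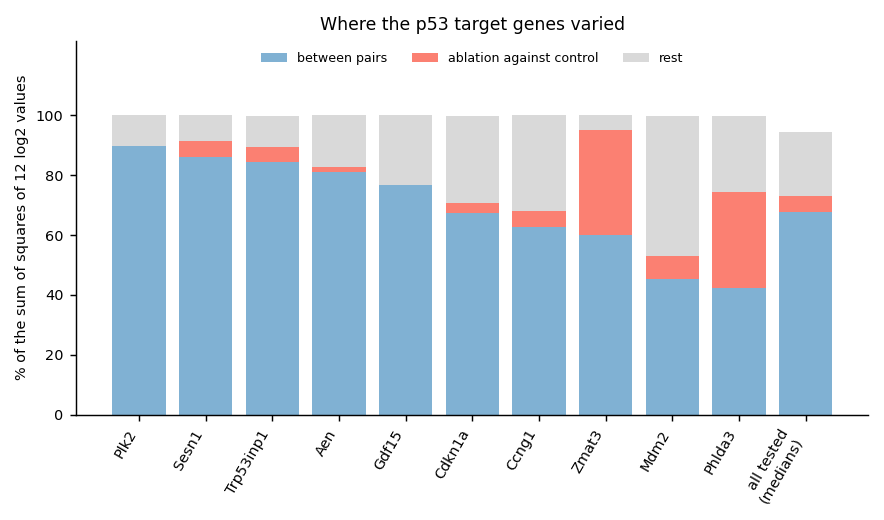
Percent of the sum of squares of 12 log2 values (y axis) that lay between pairs (blue), between ablation and control (red) and in neither (gray), for each p53 target gene and as medians of all genes tested, so that the last bar need not reach 100%. The red part is large in Zmat3 (35.3%) and Phlda3 (32.0%) and small in the others.

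The library sets were compared to see whether untreated dishes or the response itself differed. Set 1 held passages P2+14 and P2+15 and set 2 P2+15 and P2+16, so that library set, passage and culture date largely moved together. A difference between sets cannot be assigned to one of them. Between controls of both sets, limma called 0 of 10 target genes and 0% of all genes (13.5% at an unadjusted p under 0.05, with Trp53inp1 the one target gene). The response of set 2 minus that of set 1, tested as an interaction with the pair in the model, was called for 0 of 10 target genes and 0.00725% of all genes. Trp53inp1 had an interaction of -0.25 with an unadjusted p of 0.0475 and an adjusted p of 0.630, and at an unadjusted p under 0.05 stood 7.88% of all genes. For Sesn1 the response was -0.05 in set 1 and -0.37 in set 2, with an unadjusted p of 0.0504 for their difference. For Plk2 it was -0.14 and 0.11, with an unadjusted p of 0.0570.

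Other genes of the pathway were read from lists, some of which share genes. Sesn2 was counted among other p53 targets, paralogs and ATF4 targets, and Mdm4 among regulators and paralogs. Of 24 other p53 targets, which act in cell death (Bax, Bbc3, Pmaip1, Fas), DNA repair (Ddb2, Xpc, Polk) and arrest (Btg2, Gadd45a, Sfn), 24 were tested, 13 were below 0 and none was called in either model. Their median log2 difference was -0.03. The 2 with the largest differences were Rrm2b, a subunit of ribonucleotide reductase that supplies nucleotides for repair (0.16, adjusted p = 0.698, paired 0.113, higher in 6 of 6 pairs), and Ddb2, which recognizes ultraviolet lesions (0.16, adjusted p = 0.648, paired 0.191, higher in 5 of 6 pairs). Among 16 regulators of p53, 9 were below 0, the median was -0.02 and none was called with all 6 pairs. Chek1, a checkpoint kinase, had a log2 difference of 0.14 (adjusted p = 0.863, paired 0.481). Its paired adjusted p was 0.0405 once pair 1 was omitted and at most 0.739, when pair 4 was omitted.

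Trp53, the gene of p53 itself, ranged from 3149 to 4366 normalized counts after ablation (median 3871) and from 3878 to 5231 in the control (median 4379). It was lower in 5 of 6 pairs and its groups overlapped, with a log2 difference of -0.23 and an adjusted p of 0.614 with library set and of 0.0614 with the pair. Its paired adjusted p was 0.0177 without pair 7 and between that and 0.195 over the fits that left out a pair. Trp63 and Trp73, whose proteins recognize similar elements, did pass in the paired model, with Trp63 higher (9844 ± 1141 against 7505 ± 917, log2 difference 0.39, adjusted p = 0.0082) and Trp73 lower (317 ± 131 against 476 ± 126, -0.62, adjusted p = 0.0090), each in 6 of 6 pairs. Neither passed with library set (0.187 and 0.616), and without pair 4 the paired values were 0.0541 and 0.0562. Whether the change of Trp63 and Trp73 bears on the target genes was not tested. The paper's own test of these libraries, DESeq2 with condition and batch, counted Trp53 and Trp63 among its differentially expressed genes.

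Paralogs of the target genes, which share their ancestry but mostly not their control by p53, numbered 12, of which 7 were below 0 (median -0.04) and none was called with all 6 pairs. Phlda1 had 3032 ± 567.9 normalized counts after ablation and 2370 ± 690 in the control (SD, n = 6), a log2 difference of 0.38 (adjusted p = 0.648, paired 0.232) and a higher value in 5 of 6 pairs. Plk3, a relative of Plk2, had 345 ± 77.6 and 272 ± 70.0, a log2 difference of 0.34 (adjusted p = 0.692, paired 0.107), and was also higher in 5 of 6 pairs. The paired adjusted p of Plk3 was 0.0449 once pair 1 was omitted and at most 0.282, when pair 4 was omitted. Its mean pair difference was 0.096 in set 1 and 0.58 in set 2.

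Targets of ATF4 were read as well because this factor also drives stress genes such as Gdf15 and Sesn2. Of 12 such genes 4 were below 0 and the median was 0.04. With library set none was called, and with the pair 1 was, Slc7a11, the cystine transporter, which had 7032 ± 930 normalized counts after ablation and 5718 ± 710 in the control (log2 difference 0.30, adjusted p = 0.486, paired 0.0090, higher in 6 of 6 pairs). Without pair 4 its paired adjusted p was 0.0555. The paper's DESeq2 test counted Slc7a11 and Ddit3, also of this list, among its differentially expressed genes. Atf3 had a log2 difference of 0.42 (adjusted p = 0.707, paired 0.279, higher in 5 of 6 pairs). By pair, the median of the 12 ATF4 targets was -0.23 in pair 1 and -0.06 in pair 5, 0.16 in pairs 3 and 4, 0.08 in pair 6 and 0.18 in pair 7. Gdf15, with -1.14, -0.09, 0.50, 0.48, -0.30 and 0.46 in the same order of pairs, had the opposite sign in pair 6. Whether ATF4 bears on Gdf15 or any other target gene was not tested.

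**Figure D5:**
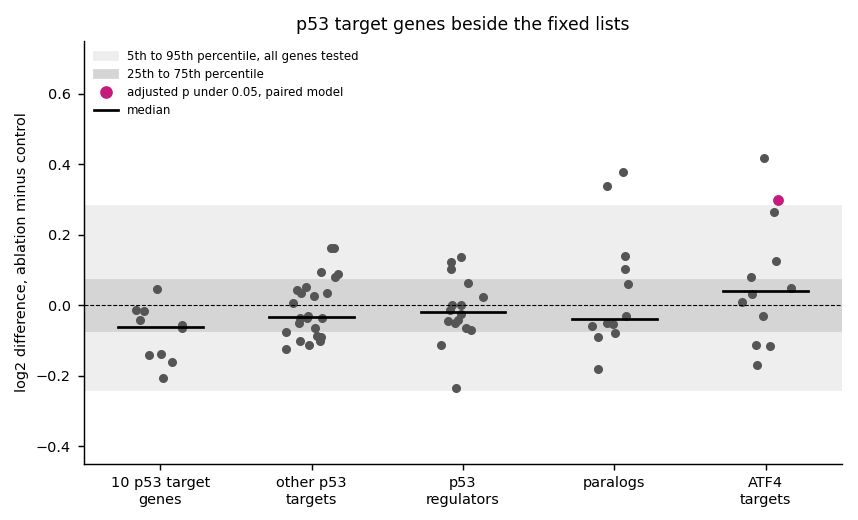
Log2 difference of ablation minus control (y axis, model with library set) for every tested gene of 5 lists (x axis), with a bar at each median and gray bands for the middle of all genes tested, the 25th to 75th percentile from -0.07 to 0.07 and the 5th to 95th from -0.24 to 0.28. All 10 p53 target genes lie within the outer band, and the one colored point is Slc7a11, called in the paired model.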

How the data were processed

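RNA of 12 dishes was sequenced as stranded poly(A) libraries with paired reads of 75 bases. The authors processed reads with nf-core/rnaseq, the GENCODE mouse annotation on GRCm38.p6 and DESeq2, and aligner and counter are not given in the sources used here. The values are the signal of their normalized counts, which the authors deposited after scaling the reads of a library by 1 size factor, with no correction for gene length. In 9 libraries whole reads could be recovered (100% of values were whole multiples of a step within 0.1), 23631212 to 29775699 per library. Deposited columns of the authors' own comparison (log2 fold changes, standard errors, Wald statistics and p-values) were not used.

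Groups follow the treatment labels. A gene was tested if 6 or more libraries had 10 or more normalized counts. limma 3.58.1 in R 4.3.3 (trended, robust eBayes) was run on log2(normalized count + 1), the scale of all folds, with Benjamini-Hochberg adjustment over 13792 genes and a threshold of 0.05. The main model held condition and library set, inferred from the numbering of the libraries, since the study names a batch without saying what it was. The second held condition and pair. Same-numbered dishes share passage, culture day and date in their titles, and their deviations from group means correlated across genes with r from 0.21 to 0.62. With dishes of other pairs in the other group, the mean r was -0.16 to -0.03. For target genes, intervals and adjusted p-values of ablation against control with no model named are from the main model. Alternatives were edgeR 4.0.16 (quasi-likelihood test) on the 9 libraries, other pseudocounts, scalings, filters and variance models, single library sets, and fits without a pair. Scripts were tested on simulated data.

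Named are all 10 target genes, Trp53, Trp63 and Trp73, every listed gene past the threshold in either model, the 2 genes of each list with the largest absolute difference and, chosen after their values were seen, the 8 tested genes with a near match to the element. Ddit3 is mentioned because the paper's own test counted it. Members and lists were chosen with earlier results of these data known.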

Additional observations from a re-analysis of the deposited data

Results flagged for a closer look

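Among 40 groups of 6 dishes (20 genes named, 2 groups each), 2 held a dish far from its nearest neighbor relative to the range of the group, and about 1 in 20 groups is expected to by chance. Both were ablation 1. Sesn1 had 3085 normalized counts there, the highest of its group, while the other 5 ablation dishes had 1131 to 1522. Its own control, at 2629.9, was also the highest control. Gdf15 had 50.69 normalized counts in the same dish, the lowest of its group, with 183.0 to 241.2 in the other 5, and its own control, at 113, was the lowest control. Without pair 1 the log2 difference of Sesn1 was -0.29 in place of -0.21 and that of Gdf15 0.21 in place of -0.01.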

How the results depend on the processing

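No target gene was called under any of 29 alternatives, so that 0 of 10 were called throughout, and of 290 fits of single target genes 269 kept their direction and 21 reversed it. Cdkn1a, Phlda3, Zmat3, Sesn1 and Trp53inp1 were lower in every one of them. The reversed values were, in both models, -0.020 for Mdm2 in set 1 only, 0.0035 for Ccng1 in set 1 only, 0.016 for Aen in set 2 only, 0.21 for Gdf15 in set 2 only and 0.11 for Plk2 in set 2 only, besides 0.019 for Plk2 in edgeR. With a pair left out, Ccng1 ranged from -0.083 to 0.00022 (without pair 6), Gdf15 from -0.12 to 0.21 (without pair 1, and 0.043 without pair 6) and Plk2 from -0.053 to 0.061 (without pair 1, and 0.012 without pair 5). The median of the 10 genes, -0.06, then ranged from -0.12 (without pair 3) to -0.045, and was -0.10 without pair 7. The cause was not tested.

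The replicate block raised the number of genes called from 0 to 150, and to 158 with a pseudocount of 5, 356 without a filter, 168 with quantile normalization, 151 with TMM factors, 16 in set 1 only and 109 in set 2 only (176, 90, 8, 77, 106 and 140 without pairs 1, 3, 4, 5, 6 and 7). With plain eBayes it called 0. Without a filter and without the block 3 genes were called. Listed genes called rose from 0 to 3 under the block (Trp63, Trp73 and Slc7a11). Under the block they numbered 3 at a pseudocount of 5, 6 without a filter, 4 with quantile normalization and 3 with TMM factors. In set 2 only they numbered 7, in set 1 only 0, and with plain eBayes 0. With a pair left out they numbered 0 to 6, and 0 without pair 4. The block changed no other call of the text. The block together with another pseudocount, filter, scaling, variance model or single set was chosen after seeing the data. Depth limits Gdf15 most, at 50.7 to 257 normalized counts per dish.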
